A study of Mus musculus with 6 samples.

Results

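A set of 10 genes of bone morphogenetic protein (BMP) signalling and of the Id family was followed in intestinal organoids of Apc Min mice: the ligand genes Bmp2, Bmp4 and Bmp7, the receptor gene Bmpr1a, the inhibitory Smad genes Smad6 and Smad7, and Id1, Id2, Id3 and Id4. They were chosen by gene symbol, with earlier results of these data known, and all 10 were found among the 24956 genes of the table. The organoids are closed cultures of primary epithelial cells, grown in organoid medium, and every library carried the Apc Min genotype, a germline nonsense mutation of the Wnt pathway gene Apc. A control group of 3 libraries was set against 3 libraries of cultures given DM-aKG (dimethyl alpha-ketoglutarate, an ester that enters cells and yields the TCA cycle metabolite), and the series title asks about Wnt signalling and differentiation. Dose, duration, the control's own treatment, the segment of gut, and whether the medium held the BMP antagonist Noggin are not stated in the labels. Nor is it said whether replicates were separate mice or separate cultures, so p-values measure only the spread between these libraries. Values are RPKM (reads per kilobase of gene, scaled by the size of the library).

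BMP ligands bind paired type I and type II receptors on the cell surface, and the activated type I receptor phosphorylates Smad1, Smad5 and Smad9, which enter the nucleus with Smad4. Id genes are among the most direct targets of this signal, and their proteins, which lack a DNA-binding region, hold E proteins and other basic helix-loop-helix (bHLH) factors away from DNA. Smad6 and Smad7 are induced by the same signal and restrain it. In the intestine BMP activity is known to be low at the crypt base, where mesenchymal cells secrete antagonists, and to rise toward the villus, where it favours differentiation.

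Id1 rose in DM-aKG, while Id2, Bmp7 and Bmpr1a fell. Bmp2 did not pass the test, and the other 5 members lay below the level needed for testing, a mean of 1 RPKM over the 6 libraries. Of the 5 tested members 1 was called higher and 3 lower, by limma on log2(RPKM + 0.5) at a Benjamini-Hochberg adjusted p under 0.05. The background was high: 55.6% of 10852 tested genes were called, 30.9% as higher and 24.7% as lower, so a count of 4 of 5 does not by itself set these genes apart. Over all tested genes 3354 were higher and 2679 lower, which became 2790 and 3340 with each library centred on its median. The 5 tested members had a median log2 fold change of -0.31, against 0.02 for all tested genes. In 8 of the 10 members the groups did not overlap, as in 46.9% of the 18343 genes with any value above 0, and in all 5 of the tested members, as in 64.2% of tested genes.

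**Figure D1:**
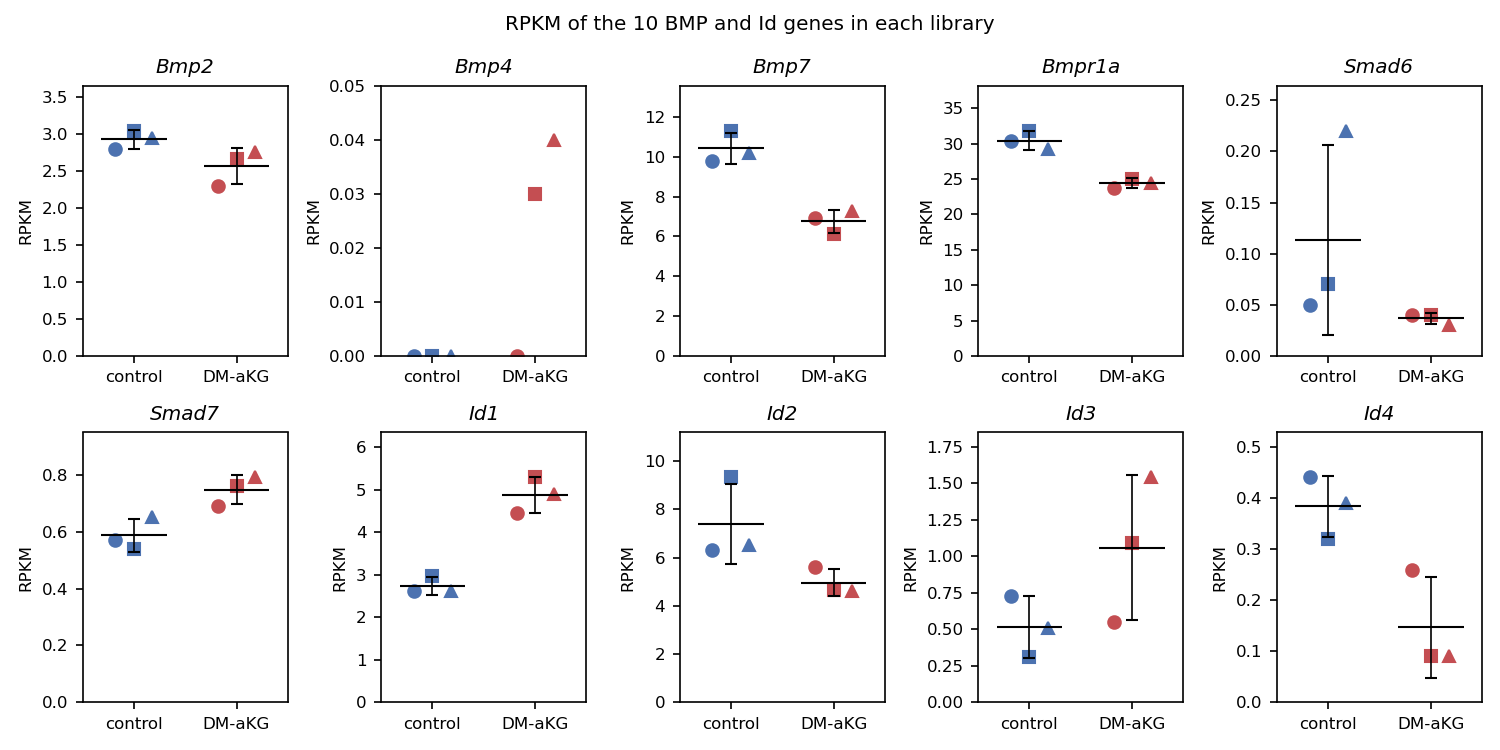
RPKM (vertical axes, each from 0) of the 10 BMP and Id genes in 3 control (blue) and 3 DM-aKG (red) libraries, with circles, squares and triangles for replicates 1, 2 and 3, and lines with bars for the mean and SD (not drawn for Bmp4, which is at 0 in 4 libraries). Id1 lies between 4.45 and 5.29 in DM-aKG, above all controls, whereas Bmp7, Bmpr1a and Id2 lie below all controls.

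Sequence upstream of the RefSeq start is shown for 3 members, Id2, Id4 and Bmpr1a, the ones whose windows held the word GGCGCC. Id2 and Bmpr1a were called lower and the values of Id4 were lower. Those of Smad6 were lower too, and its window held no match, so the choice shows no link to direction. Windows of 250 bases before that start, from RefSeq on GRCm38.p6, were available for 6 of the 10 members (Id2, Id3, Id4, Bmp4, Bmpr1a and Smad6). The RefSeq start is not always that of the GENCODE gene spans given for the members. It lies 1048 bases downstream of the GENCODE start for Id2, 795 for Bmpr1a and 325 for Id3, so these windows fall inside the GENCODE genes. For Id4 it lies upstream, at -112 bases from the GENCODE start, and for Bmp4 and Smad6 both starts are the same base. GENCODE exons cover 161 bases of the Id2 window, 141 of the Bmpr1a window and all 250 of the Id3 window, and only bases outside them are printed, 5′ to 3′ along the gene. Capitals mark matches to GGCGCC, the GC-rich core recognized by Smad1 and Smad5, searched on both strands together with the Smad box CAGAC.
Id2, chr12:25096254-25096342, minus strand: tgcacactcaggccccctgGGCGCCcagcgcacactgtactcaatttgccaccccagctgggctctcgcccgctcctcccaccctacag
Id4, chr13:48260866-48261115, plus strand: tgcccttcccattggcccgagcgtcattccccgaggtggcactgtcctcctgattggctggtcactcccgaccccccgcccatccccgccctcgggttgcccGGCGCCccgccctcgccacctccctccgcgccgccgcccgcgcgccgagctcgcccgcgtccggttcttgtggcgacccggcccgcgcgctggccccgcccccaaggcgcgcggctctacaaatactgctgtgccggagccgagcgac
Bmpr1a, chr14:34502688-34502796, minus strand: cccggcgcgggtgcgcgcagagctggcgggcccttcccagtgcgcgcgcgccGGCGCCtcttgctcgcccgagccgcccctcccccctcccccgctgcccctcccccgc
GGCGCC stood once in each of the windows of Id2 (bases -231 to -226 from the RefSeq start), Id4 (-148 to -143) and Bmpr1a (-198 to -193), and it is in 9.59% of all 32851 such windows. The Id3 window held no GGCGCC but 2 copies of CAGAC (-167 to -163, and reversed at -68 to -64), a shorter word that 42.2% of all windows hold. The Bmp4 and Smad6 windows held neither. The windows are rich in G and C, at 62.8% for Id2 and for Id3, 75.6% for Id4 and 78.8% for Bmpr1a, where the median over all windows is 52.4%, and a match describes the letters only.

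Id1 encodes the family member most often read as an immediate output of BMP receptors. Its level was 2.61, 2.98 and 2.63 RPKM in control replicates 1 to 3 and 4.45, 5.29 and 4.89 RPKM in the DM-aKG replicates. Every treated library stood above every control, and the gap between the groups was wider than the range within either. The mean rose from 2.74 ± 0.208 to 4.88 ± 0.42 RPKM (SD, n = 3 per group, as throughout), 1.78 times the control level. The log2 fold change was 0.73 ± 0.08 (SE; limma, adjusted p = 2.57e-04), and 92.2% of tested genes changed by less in either direction. Id1 lies on chromosome 2 of GRCm38, 152736251 to 152737410 on the plus strand, and is short, with 1.16 kb of exons, so that its levels stand for about 100 to 201 reads per library.

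Id2, the Id gene with the highest level in the control organoids, moved the opposite way. It was measured at 6.32, 9.32 and 6.53 RPKM in the controls and at 5.63, 4.65 and 4.62 RPKM in DM-aKG. The groups were 0.69 RPKM apart, less than the 3.00 RPKM range of the controls, in which replicate 2 stood well above the others. The mean of Id2 fell from 7.39 ± 1.68 to 4.97 ± 0.575 RPKM, a log2 fold change of -0.51 ± 0.14 with an adjusted p of 0.017 by limma. Without control replicate 2 the log2 fold change of Id2 was -0.35 (limma, adjusted p = 0.0212). The call was lost when DM-aKG replicate 2 or 3 was left out, with adjusted p-values by limma of 0.0591 and 0.056. Hypoxia-inducible genes were also high in control replicate 2: Ankrd37 was at 49.54 RPKM there against 27.03 and 28.72 in the other controls, and Adm, which encodes adrenomedullin, at 13.62 against 3.58 and 4.84 RPKM. Their part in the level of Id2 was not tested. The gene spans 25093799 to 25097140 on the minus strand of chromosome 12.

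Id3 and Id4 were weakly expressed and were not tested in the fit across genes. Id3 was at 0.73, 0.31 and 0.51 RPKM in the controls and 0.55, 1.09 and 1.54 RPKM in DM-aKG, about 19 to 90 reads per library by its 1.79 kb of exons. The groups overlapped, since DM-aKG replicate 1 lay below a control, and the difference on the log2(RPKM + 0.5) scale was 0.59, or 0.85 without that library. With the filter lowered to 0.3 RPKM the gene Id3 did not pass (limma, adjusted p = 0.0822). Id4 was at 0.44, 0.32 and 0.39 RPKM in the controls and 0.26, 0.09 and 0.09 RPKM in DM-aKG. All treated libraries were below all controls, and about 11 reads stood behind each of the lowest values. Its log2 difference was -0.46, which became -1.03 with a pseudocount of 0.1, and with no filter on low values Id4 was called lower (limma, adjusted p = 0.0217). Among genes below the filter with any value above 0, 21.9% had groups that did not overlap. In GENCODE, exons of antisense transcripts overlap Id4, and the strand setting of the counting is not given; the one with a row in the table, A330033J07Rik, was at 0 in all 6 libraries.

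The make-up of the Id genes as a group shifted, while their summed level overlapped between the groups. Their RPKM summed to 10.1, 12.93 and 10.06 in the controls and to 10.89, 11.12 and 11.14 in DM-aKG, so the groups overlapped. The overlap rested on control replicate 2, where Id2 was highest, and the other controls were below every treated library. Id1 made up 25.8%, 23.0% and 26.1% of the sum in the controls and 40.9%, 47.6% and 43.9% in DM-aKG. The share of Id2 went from 62.6%, 72.1% and 64.9% to 51.7%, 41.8% and 41.5%. Controls thus held more Id2 than Id1 RNA per length, and the treated libraries held similar amounts of both. The ratio of Id1 to Id2 was 0.41, 0.32 and 0.40 in the controls and 0.79, 1.14 and 1.06 in DM-aKG. These sums and ratios were formed after the values were seen and are given without a test.

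**Figure D2:**
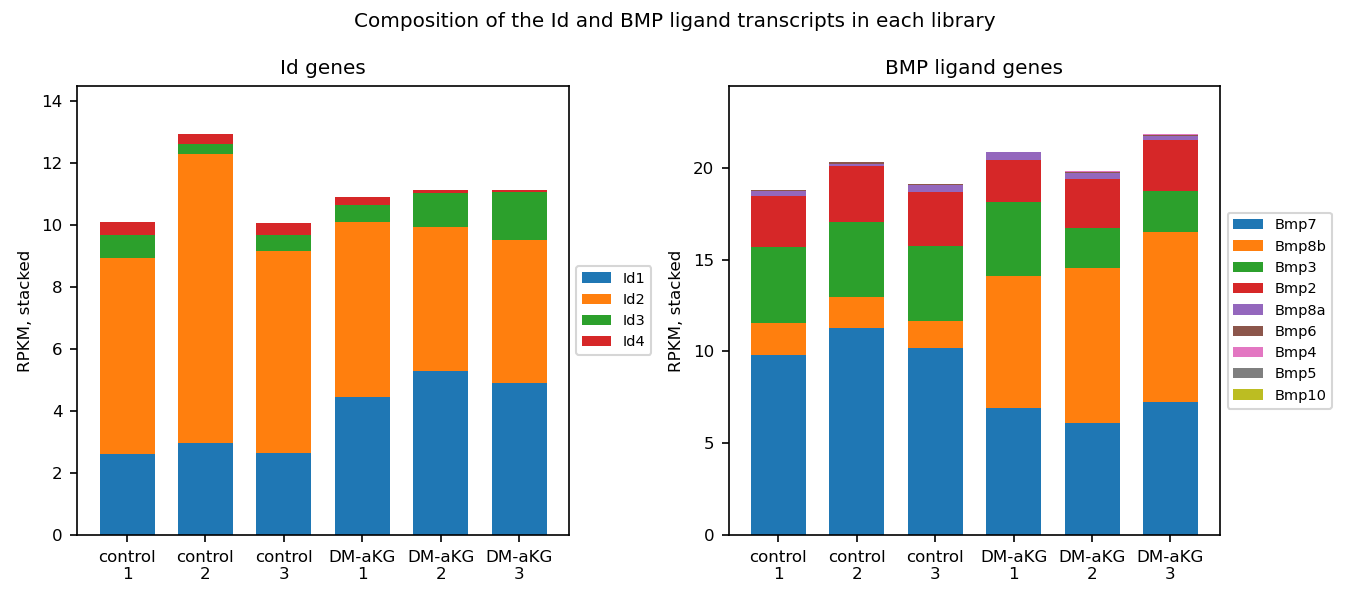
RPKM per library (vertical axis from 0, stacked) of the 4 Id genes on the left and of 9 BMP ligand genes on the right, for control and DM-aKG replicates 1 to 3. The height of the Id stack overlaps between the groups through control replicate 2 (10.06 to 12.93 against 10.89 to 11.14 RPKM) while the Id1 part grows, and the ligand stack shows Bmp7 giving way to Bmp8b.

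Bmp7 was the most abundant BMP ligand gene in the controls. Its level was 9.80, 11.29 and 10.17 RPKM there and 6.90, 6.11 and 7.25 RPKM in DM-aKG. The lowest control was well above the highest treated library. Its mean went from 10.4 ± 0.776 down to 6.75 ± 0.584 RPKM, a log2 fold change of -0.59 ± 0.08 (adjusted p = 5.45e-04 by limma), and 88.1% of tested genes changed by less. It lies on the minus strand of chromosome 2, 172868012 to 172940321.

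Bmp2, a ligand known from the upper crypt and villus epithelium, was at 2.79, 3.04 and 2.95 RPKM in the controls and 2.29, 2.66 and 2.75 RPKM in DM-aKG. All treated values were below all controls, by as little as 0.04 RPKM. Its log2 fold change was -0.16 ± 0.08 (95% interval -0.35 to 0.02; limma, adjusted p = 0.117), so it was not called, and the interval leaves room for a fall of about the size seen in Bmpr1a. Bmp4, whose known source in the gut is the mesenchyme beneath the epithelium, was listed at 0 in the 3 controls and in DM-aKG replicate 1, and at 0.03 and 0.04 RPKM in replicates 2 and 3. Those values stand for about 2 and 3 reads, and no fold is given.

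Among the other ligand genes, Bmp8b, Gdf15 and Gdf9 had larger log2 fold changes than any tested member. Bmp8b, a close relative of Bmp7, rose from 1.75, 1.65 and 1.48 RPKM in the controls to 7.18, 8.45 and 9.23 RPKM in DM-aKG, a log2 fold change of 2.04 ± 0.10 (adjusted p = 6.08e-06 by limma). Bmp8b has a close relative on the same chromosome, Bmp8a (mean 0.253 against 0.317 RPKM), and their likeness in sequence was not measured. Any reads that match both may have been divided between them. The exons of Bmp8b overlap those of Ppie on the other strand. Ppie was at 20.4 ± 0.562 and 19.6 ± 1.65 RPKM in the groups (limma, adjusted p = 0.494). Oxct2b, which overlaps Bmp8b on the same strand without shared exons, was at 0.03, 0.13 and 0.03 RPKM in the controls. In DM-aKG it was at 0.20, 0.31 and 0.44 RPKM, and its part in the level of Bmp8b was not tested. Gdf15, a distant family member that signals through another receptor and is known to respond to cell stress, rose from 4.87 ± 0.653 to 24.7 ± 2.64 RPKM (log2 fold change 2.23). Gdf9, known as an oocyte factor, fell from 2.91 ± 0.159 to 0.92 ± 0.246 RPKM (log2 fold change -1.28). Its DM-aKG mean was below 1 RPKM, so Gdf9 passed the filter through the controls, where it was high. Bmp3, a ligand that opposes the others, stood at 4.13, 4.09 and 4.08 RPKM in the controls and at 4.07, 2.18 and 2.27 RPKM in DM-aKG. It lay just inside the threshold (log2 fold change -0.51 ± 0.19; limma, adjusted p = 0.0498), was called in 7 of 17 alternatives, and had a log2 fold change of -0.76 without DM-aKG replicate 1 (limma, adjusted p = 3.74e-05) and of -0.37 without DM-aKG replicate 2 (limma, adjusted p = 0.158). Of 16 further genes listed with the ligands 5 were tested, 2 were higher, 2 lower and 1, Bmp1, not called (log2 fold change 0.05; limma, adjusted p = 0.661). Bmp1 encodes a protease and, despite its name, not a BMP ligand. The 11 below the filter reached at most 0.4 RPKM.

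Summed over 9 BMP ligand genes, the level was 18.8, 20.32 and 19.13 RPKM in the controls and 20.87, 19.8 and 21.83 RPKM in DM-aKG, with overlap. Bmp7 made up 52.1%, 55.6% and 53.2% of that sum in the controls and 33.1%, 30.9% and 33.2% in DM-aKG. Bmp8b went from 9.3%, 8.1% and 7.7% to 34.4%, 42.7% and 42.3%. As for the Id genes, this sum was formed after the values were seen and was not tested.

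Bmpr1a, the type I receptor through which the BMP2 and BMP4 proteins act in the gut, was the most abundant member in every library. It was at 30.31, 31.77 and 29.17 RPKM in the controls and 23.69, 25.05 and 24.45 RPKM in DM-aKG. The controls lay within 2.60 RPKM of each other and the treated libraries within 1.36 RPKM, with no overlap. Bmpr1a fell to 24.4 ± 0.682 from 30.4 ± 1.30 RPKM, a log2 fold change of -0.31 ± 0.05 (adjusted p = 0.00101 by limma). Among tested genes 67.6% changed by less, so the fall was well defined but of moderate size. Bmpr1a spans 34410734 to 34503341 on the minus strand of chromosome 14, where exons of the antisense gene Gm17110 overlap it.

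The type II receptor gene Bmpr2 rose by 0.28 ± 0.05 in log2 units, with means of 6.39 ± 0.215 RPKM in control and 7.85 ± 0.0737 RPKM in DM-aKG (adjusted p = 0.00192 by limma). RPKM of Bmpr1a per RPKM of Bmpr2 went from 4.59, 5.15 and 4.56 in the controls to 2.99, 3.22 and 3.10 in DM-aKG. Rgmb, a membrane-anchored BMP co-receptor, fell as well, from 40.4 ± 0.486 RPKM to 22.0 ± 2.55 (log2 fold change -0.87 ± 0.08, adjusted p = 9.15e-05 by limma). Acvr2b, a type II receptor shared with activin, fell from 2.22 ± 0.0723 to 1.42 ± 0.272 RPKM, and its paralog Acvr2a was at 9.18 ± 0.665 and 8.79 ± 0.0458 RPKM (log2 fold change -0.06, 95% interval -0.19 to 0.08; limma, adjusted p = 0.435). In all, 1 of 5 tested receptor and co-receptor genes outside the members was higher and 2 were lower. Acvr1, another type I receptor gene, was at 4.56 ± 0.195 and 4.48 ± 0.110 RPKM and was not called (log2 fold change -0.02; limma, adjusted p = 0.742). Bmpr1b, the type I receptor gene closest to Bmpr1a, was listed at 0 in every library.

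The inhibitory Smad genes were both low. Smad7 was at 0.57, 0.54 and 0.65 RPKM in the controls and 0.69, 0.76 and 0.79 RPKM in DM-aKG, about 82 to 117 reads per library. All treated values were above all controls, by at least 0.04 RPKM. The log2 difference of Smad7 was 0.20, and Smad7 did not pass with the filter at 0.3 RPKM (limma, adjusted p = 0.0968) or with none (limma, adjusted p = 0.0724). Smad6 was at 0.05, 0.07 and 0.22 RPKM in the controls and 0.04, 0.04 and 0.03 RPKM in DM-aKG. The groups were apart by 0.01 RPKM, the last decimal of the table, and about 3 to 8 reads stood behind each value except control replicate 3, with about 23. Without that library the log2 difference of Smad6 went from -0.18 to -0.06.

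Among the Smads that carry the signal, Smad5 fell and Smad1 was not called. Smad5 had means of 7.11 ± 0.191 RPKM in control and 5.05 ± 0.482 RPKM in DM-aKG, a log2 fold change of -0.46 ± 0.07 (adjusted p = 0.00116 by limma). Smad1 was at 10.8 ± 0.134 and 11.1 ± 0.191 RPKM (log2 fold change 0.04, 95% interval -0.06 to 0.13; limma, adjusted p = 0.481), a direction that turned to -0.01 with median centring and -0.02 with quantile normalization. Smad4, the common partner, was at 30.9 ± 0.889 and 29.3 ± 1.51 RPKM (limma, adjusted p = 0.222; 0.0486 with median centring). Of 14 tested Smad genes and regulators 2 were higher, 3 lower and 9 not called, so 35.7% were called against 55.6% of all tested genes. Besides Smad5, Runx1, a transcription factor that binds Smads, fell from 3.19 ± 0.265 to 1.84 ± 0.116 RPKM, and the endodermal factor gene Gata6 fell from 28.9 ± 1.04 to 23.2 ± 1.50 RPKM. Smurf1, a ubiquitin ligase for BMP Smads, rose from 6.73 ± 0.0929 to 8.10 ± 0.394 RPKM. Gata4, the most abundant gene of the list, was at 49.3 ± 1.48 and 46.2 ± 1.24 RPKM and was not called (limma, adjusted p = 0.096).

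**Figure D3:**
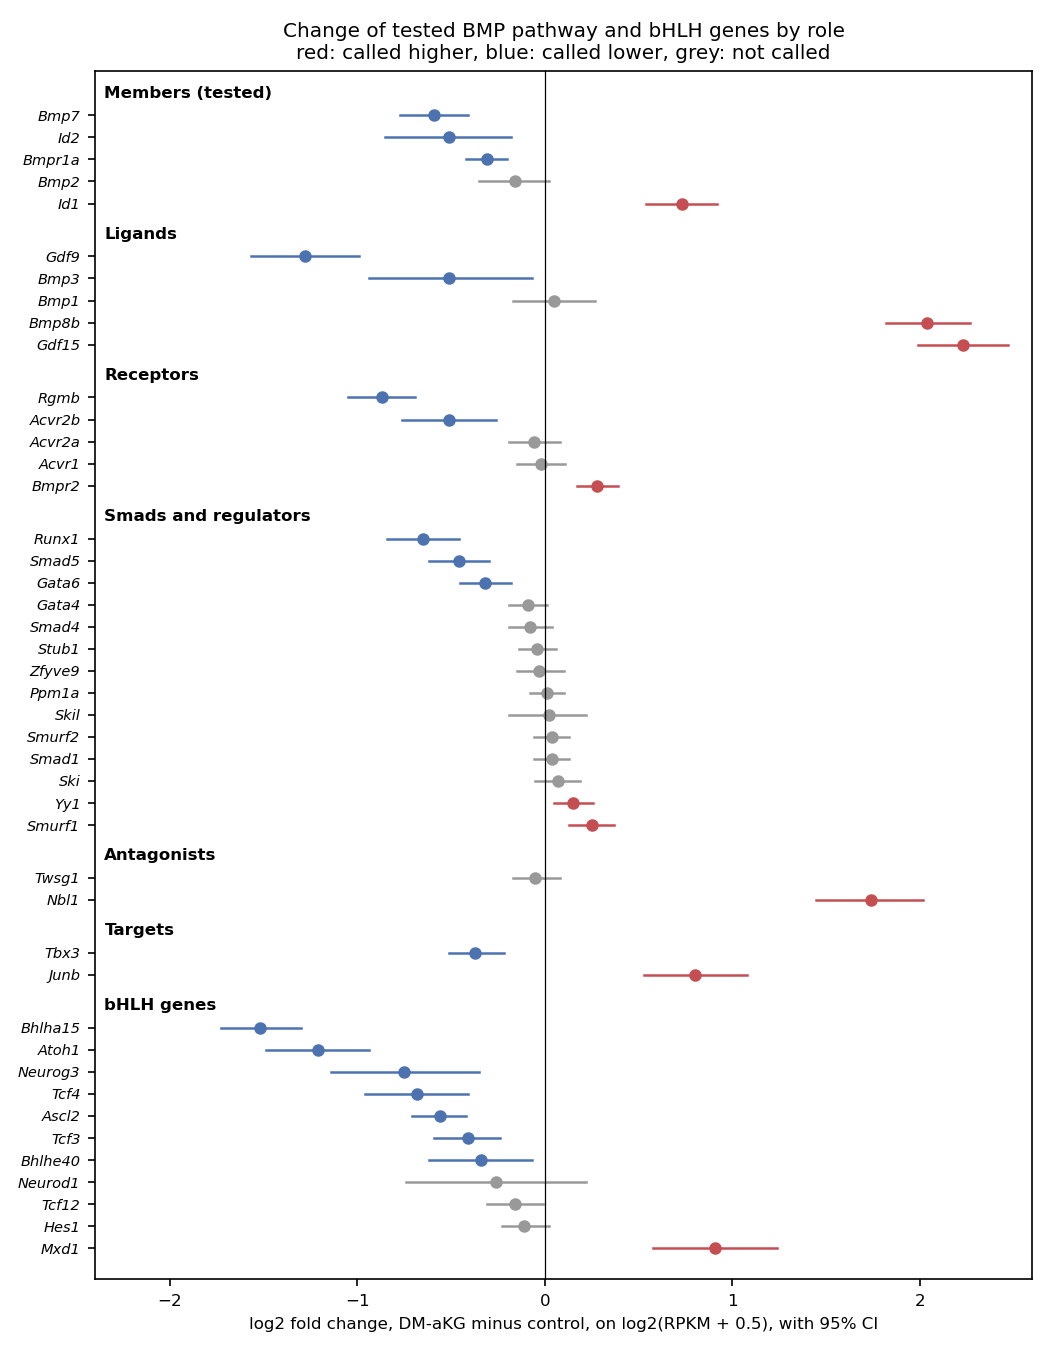
Log2 fold change (horizontal axis, DM-aKG minus control, on the log2(RPKM + 0.5) scale) with its 95% interval for the tested members and other tested BMP pathway and bHLH genes, ordered within roles. Red marks genes called higher, blue lower and grey not called; Id1 lies at 0.73, Bmp7 at -0.59 and Bmpr1a at -0.31, while Bmp8b and Gdf15 lie above 2.

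Antagonist genes were mostly silent in these cultures. Of 18 listed, 16 were below the filter, among them Grem1, which was at 0 in every library, and Nog, which encodes Noggin and reached 0.02 RPKM in control replicate 3 only. Nbl1, which encodes a secreted BMP binder of the DAN family, rose by 1.74 ± 0.12 in log2 units, with means of 1.15 ± 0.104 RPKM in control and 5.03 ± 0.89 RPKM in DM-aKG (adjusted p = 3.86e-05 by limma). Twsg1, which binds BMPs and can help or hinder them, was at 13.4 ± 0.321 and 13.0 ± 0.805 RPKM (limma, adjusted p = 0.494).

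Targets of BMP signalling outside the Id family went both ways. Only 2 of 16 listed passed the filter: Junb, an AP-1 gene that many signals induce, rose from 22.3 ± 3.36 to 39.3 ± 5.08 RPKM, and the T-box factor gene Tbx3 fell from 19.1 ± 1.47 to 14.7 ± 0.545 RPKM. Bambi, which encodes a receptor-like decoy and is also a Wnt target, was at 0.88, 0.73 and 0.73 RPKM in the controls and 0.19, 0.30 and 0.27 RPKM in DM-aKG. Atoh8, a bHLH gene known as a Smad1 and Smad5 target, was at 0.48, 0.58 and 0.57 RPKM and at 0.07, 0.05 and 0.12 RPKM. Both were lower in every treated library, the reverse of Id1. Stox2, another listed target, went the other way, from 0.08, 0.10 and 0.08 RPKM to 0.53, 0.49 and 0.53 RPKM. With the filter at 0.3 RPKM, where 53.4% of all tested genes were called, Bambi and Atoh8 were called lower (limma, adjusted p = 7.97e-04 and 4.89e-04). Stox2 was called higher there (limma, adjusted p = 4.19e-04). These 3 genes were picked out after their values were seen. The groups did not overlap in 5 of the 16 targets, 2 higher (Junb, Stox2) and 3 lower (Tbx3, Bambi, Atoh8), and each of the others below the filter had groups that overlapped. Another 5 of the 16 were at 0 in every library. Over all genes with a value above 0 the groups did not overlap in 46.9%, and in 21.9% of those below the filter, so the count does not set these targets apart.

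The 11 tested bHLH genes were E protein genes, factors that pair with E proteins and other bHLH genes, and not all are partners of Id proteins. Of the 11, 7 were lower in DM-aKG, 1 was higher and 3 were not called. That is 72.7% called, where 55.6% of all tested genes were called and 24.7% were called lower, with a median log2 fold change of -0.41 against 0.02 over all tested genes. The E protein genes Tcf3 and Tcf4 fell. Tcf3 had means of 28.0 ± 1.19 RPKM in control and 21.0 ± 2.20 RPKM in DM-aKG (adjusted p = 0.00264 by limma), and Tcf4 3.49 ± 0.215 RPKM and 2.01 ± 0.427 RPKM (adjusted p = 0.00213 by limma). Tcf12, the other E protein gene, was at 19.3 ± 1.01 and 17.3 ± 1.33 RPKM (limma, adjusted p = 0.0717), and without DM-aKG replicate 1 it was called lower (limma, adjusted p = 0.00776). Of the lineage factors that pair with E proteins 4 fell: Bhlha15, of secretory cells, from 10.3 ± 0.463 to 3.31 ± 0.502 RPKM, the secretory master gene Atoh1 from 4.86 ± 0.52 to 1.82 ± 0.325 RPKM, the endocrine progenitor gene Neurog3 from 17.8 ± 0.781 to 10.6 ± 2.78 RPKM, and the stem cell factor gene Ascl2 from 15.6 ± 1.22 to 10.4 ± 0.289 RPKM. Neurod1, of endocrine cells, was at 4.66, 2.86 and 3.87 RPKM and at 2.22, 3.13 and 3.98 RPKM, with overlap, and was not called (log2 fold change -0.26; limma, adjusted p = 0.314). The gene that rose was Mxd1, a partner of MAX, from 6.63 ± 1.06 to 12.9 ± 2.27 RPKM. Bhlhe40, the most abundant gene of the list and a hypoxia-inducible repressor, was at 63.65, 87.81 and 64.73 RPKM in the controls and 59.87, 53.32 and 55.50 RPKM in DM-aKG (limma, adjusted p = 0.0399). It was highest in control replicate 2, as Id2 was. It was called in 11 of 17 alternatives, and leaving out DM-aKG replicate 2 or 3 gave adjusted p-values by limma of 0.118 and 0.0945.

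Over all 49 tested genes of these lists and of the transforming growth factor beta branch, the members left out, 11 were higher, 18 lower and 20 not called. That is 59.2%, close to the 55.6% of all tested genes, and the median log2 fold change was -0.08.

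By profile, the genes most like Id1 over the 6 libraries were Rnf157, Gcnt2 and Slc50a1, with root mean square distances of 0.03, 0.0408 and 0.0439 on the log2 scale after centring on the controls. Those nearest to Id2 were Mmp14 (0.062), Stc2 (0.0666) and Zfp428 (0.0671). The 6 values fall into 2 groups, so the likeness rests mainly on the difference between them.

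The libraries were also compared with each other, and whether their differences bear on these values was not tested. Their estimated depth was similar, 32.8 to 34.3 × 10⁶ reads. The Paneth cell defensin gene Defa17 was at 329.55, 68.54 and 60.21 RPKM in the treated libraries, highest in replicate 1. That replicate was alone the treated library nearest to the control mean in 6 of the 10 members (all 4 Id genes, Bmp4 and Smad7). Replicate 2 was so in 1 member and replicate 3 in 2. No share over all genes is given beside these counts, so they do not set replicate 1 apart. Id3, Id4, Bmp4 and Smad7 lie below the filter, and Bmp4 was at 0 in replicate 1 as in the controls. Without DM-aKG replicate 1 and control replicate 2 the same number of members were called, 1 higher and 3 lower. In that setting 64.5% of all tested genes were called. The log2 fold change was then 0.84 for Id1, -0.43 for Id2, -0.55 for Bmp7, -0.26 for Bmpr1a and -0.07 for Bmp2.

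Epithelial markers were abundant, their 10 genes summing to 3505 to 3555 RPKM in the controls and 4332 to 5198 RPKM in DM-aKG. Of these 5 were called higher, 3 lower and 2 not called. The keratin genes Krt8 (means of 831 and 1520 RPKM), Krt18 (408 and 778 RPKM) and Krt19 (512 and 924 RPKM) carried most of the larger sum, whereas Epcam (421 and 334 RPKM), Cdx1 (69.0 and 61.6 RPKM) and Cdx2 (70.3 and 40.6 RPKM) fell. Of 16 fibroblast and muscle markers 13 were at or below 0.1 RPKM in every library, with Col3a1, Dcn and Lum at 0. Their sum was 3.45 to 3.64 RPKM in the controls and 5.08 to 6.08 RPKM in DM-aKG, most of it from Vim, which was called higher. The 7 endothelial markers, a cell type with high Id1 in tissue, summed to 0.21 to 0.29 RPKM in the controls and 0.46 to 0.55 RPKM in DM-aKG. Pecam1 (0.11, 0.14 and 0.17 against 0.31, 0.34 and 0.28 RPKM) and Tek (at most 0.06 RPKM) were higher in every treated library. Vwf and Tie1 overlapped between the groups, and Cdh5, Kdr and Emcn were at 0 in every library. All 7 lay below the filter, where 21.9% of genes with any value above 0 had groups that did not overlap. The 8 immune markers summed to 1.83 to 2.01 RPKM and 2.30 to 3.57 RPKM. Cell-type shares were not measured, and in bulk RNA fewer cells of a type and less RNA per cell cannot be told apart.

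**Figure D4:**
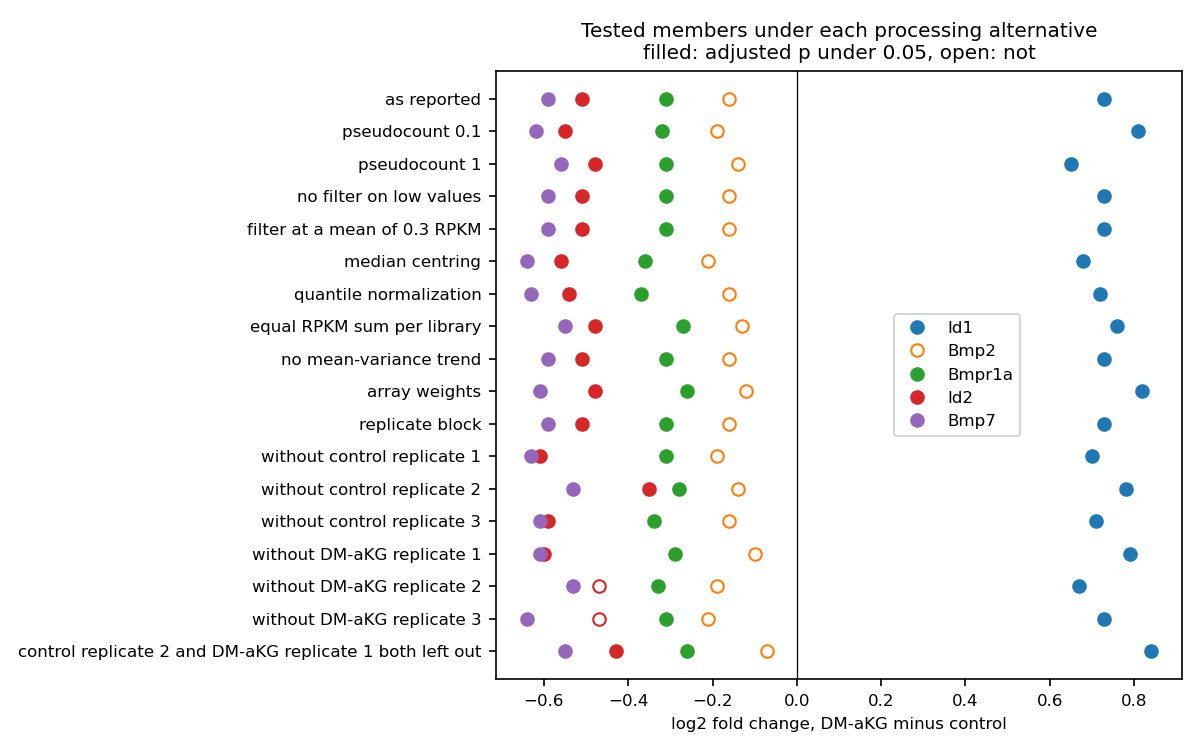
Log2 fold change (horizontal axis, DM-aKG minus control) of the 5 tested members as reported and under 17 alternatives (vertical axis), with filled points where the adjusted p was under 0.05 and open points where it was not. Id1 stays between 0.65 and 0.84 and Bmp2 is open throughout, while Id2 is open without DM-aKG replicate 2 or 3.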

How the data were processed

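The members and gene lists were chosen with earlier results of these data known. The submitters' processing notes name HISAT2 2.0.4, CASAVA 1.8, Partek and mouse build mm10, without roles; annotation, strand and multi-mapping rules are not stated there. The authors deposited RPKM with 2 decimals for 24956 genes and 6 libraries, 3 per group.

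Values were taken as log2(RPKM + 0.5), which understates changes of low genes. The 10852 genes with a mean of at least 1 RPKM were fitted with limma 3.58.1 (R 4.3.3; mean-variance trend, two-sided, no block) and adjusted by Benjamini-Hochberg over all of them; the procedure was tested on simulated data. An exact permutation test of a single gene cannot go below p = 0.1 with 3 against 3, so none is given. Depth was estimated from short RNA genes of at most 150 bases, as the depth that puts most values at 1 read; of the other values up to 5 reads, 79.7% to 88.2% were then whole within 0.05 reads. Approximate reads use exon lengths of GENCODE on GRCm38 and are not counts.

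Named genes were the members, up to 4 tested genes per list with the smallest p, the most abundant one, and the 3 genes nearest in profile to Id1 and Id2. Smad1, Smad4, the E protein genes, Bambi, Atoh8, Stox2, Neurod1, Neurog3, Bmp1, Acvr1 and genes below the filter were added after their values were seen. Alternatives changed the pseudocount, filter, scaling, variance model, block and libraries; leaving out control replicate 2 with DM-aKG replicate 1 was added after seeing the data. Tables and figures were made in Python 3.11.15 with pandas 2.3.3, numpy 2.4.6 and matplotlib 3.10.9.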

Additional observations from a re-analysis of the deposited data

How the results depend on the processing

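Over 17 alternatives, Id1, Bmp7 and Bmpr1a were called with the same direction in all, at log2 fold changes of 0.65 to 0.84, -0.64 to -0.53 and -0.37 to -0.26. Bmp2 was called in none (limma, adjusted p from 0.058 to 0.396). Leaving out each library in turn gave -0.61 to -0.35 for Id2. Its call was lost at -0.47 without DM-aKG replicate 2 and at -0.47 without replicate 3. Without DM-aKG replicate 1, which also leaves 2 treated libraries, Id2 was called at -0.6 (limma, adjusted p = 0.009). The reason for this difference was not tested. Members called lower numbered 2 to 4, the fourth being Id4 with no filter on low values. Counts in the other lists ran from 10 to 15 higher and 15 to 23 lower. Over all tested genes the share called ran from 36.1% with no filter on low values to 71.1% with weights on the libraries. The direction of Smad1 turned with median centring (-0.01) and quantile normalization (-0.02), and the cause was not tested. Deviations of same-numbered libraries correlated at -0.0832, -0.114 and 0.011. They gave no sign of a shared shift, but 3 weak correlations cannot tell whether the libraries were paired. With the replicate block 1 member was higher and 3 lower, with 5748 calls over all genes against 6033. Below about 1 RPKM, few reads and 2 decimals limit what Id3, Id4, Bmp4, Smad6 and Smad7 can show.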

Other observations

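The transforming growth factor beta branch, which uses Smad2 and Smad3 beside the same Smad4, was split between its receptors. Tgfbr1, the type I receptor gene, had means of 10.9 ± 0.637 RPKM in control and 6.09 ± 0.577 RPKM in DM-aKG (adjusted p = 1.2e-04 by limma) and so fell, as Bmpr1a did. Tgfbr2, the type II receptor gene, rose from 47.2 ± 1.04 to 66.4 ± 3.96 RPKM (limma, adjusted p = 2.11e-04), as Bmpr2 did. The ligand gene Tgfb1 rose from 0.51, 0.44 and 0.60 RPKM to 1.34, 1.62 and 1.61 RPKM. Its mean over the 6 libraries was 1.02 RPKM, so Tgfb1 passed the filter only through the DM-aKG group, where it was high. That limits its place among the genes counted as higher, in this branch and over all the lists. With the filter at 0.3 RPKM it was also called (limma, adjusted p = 2.15e-04). Tgif2, which encodes a repressor that binds Smads, had the largest fall of the tested genes of this list, from 13.74, 21.52 and 15.65 RPKM to 4.48, 3.02 and 3.61 RPKM (log2 fold change -2.05 ± 0.18; limma, adjusted p = 8.44e-05). An opposite-strand transcript, 5430405H02Rik, overlaps its exons and was at 1.44 ± 0.196 and 0.93 ± 0.185 RPKM. Of 11 tested genes of the branch 3 were higher, 3 lower and 5 not called, 54.5% called against 55.6% of all tested genes.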
